A study of Canis lupus familiaris with 10 samples.

Results

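The microRNAs (miRNAs) miR-143, miR-145, miR-199, miR-214 and miR-126, known from connective tissue and blood vessels, were followed through small RNA sequencing libraries of canine lymph nodes. They were chosen by name, as miRNAs of stroma and vessels, and all 5 are listed among the 320 miRNAs of the deposited table under the names cfa-miR-143, cfa-miR-145, cfa-miR-199, cfa-miR-214 and cfa-miR-126. The study compared fresh-frozen nodes of 6 dogs with diffuse large B-cell lymphoma (DLBCL1 to DLBCL6) with those of 4 healthy dogs (Healthy2 to Healthy5). Each library came from a different dog. The dogs with DLBCL were hospital patients of several breeds and of both sexes, biopsied under anesthesia. The healthy dogs were purpose-bred females of a hound cross in the first year of life, sampled after euthanasia. The study lists no age for the dogs with DLBCL. Diagnosis, origin, breed, age and sampling therefore cannot be told apart in any comparison of the groups, and sex was not balanced between them.

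A lymph node holds lymphocytes within a scaffold of fibroblast-like stromal cells, and it is fed by vessels that are lined by endothelium and wrapped by smooth muscle and pericytes. miR-143 and miR-145 are known to be cut from a shared primary transcript that is abundant in smooth muscle and fibroblasts, where they favour the contractile state. miR-199 and miR-214 share a transcript on the strand opposite the dynamin gene DNM3 and are known from mesenchymal cells and from fibrosis. miR-126 is encoded within EGFL7, an endothelial gene, and is the best known endothelial miRNA, which strengthens signalling by vascular growth factor. Aggressive lymphoma effaces the node with tumor cells. In a bulk sample, fewer cells of a type and less RNA per cell cannot be told apart.

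The annotation of the dog assembly UU_Cfam_GSD_1.0 was used for gene names and neighbours. It lists 1 gene each for miR-143, miR-145, miR-214 and miR-126. MIR143 and MIR145 are direct neighbours, with 0 genes starting between them, and so are MIR199-2 and MIR214, which lie inside DNM3. MIR126 lies inside EGFL7. miR-199 has 3 genes, MIR199-1, MIR199-2 and MIR199-3, inside DNM2, DNM3 and DNM1, so that its reads cannot be assigned to one of them. The names of the table carry no arm.

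The DLBCL libraries held 10686441 to 25784861 reads counted on miRNAs, and the healthy ones 30432969 to 34709421. miR-148a, the miRNA with the most reads, took 17.8% to 39.0% of them in DLBCL and 51.5% to 73.6% in healthy nodes. Levels are given as CPM, the count as a share of the library size on a parts-per-1000000 scale, after TMM adjustment, a scaling by edgeR that sets the bulk of the miRNAs equal between libraries. The TMM factors ran from 0.507 in Healthy2 to 2.03 in DLBCL6. The study's read statistics put DLBCL1, DLBCL2, DLBCL3 and DLBCL5 at a higher base quality than DLBCL4, DLBCL6 and the 4 healthy libraries. Values within the lower base quality group therefore compare 2 DLBCL libraries with 4 healthy ones. The lymphocyte miRNAs miR-142 and miR-155 were abundant in every library, with lowest values of 3382 and 3264 CPM. The minima of other lymphocyte miRNAs were lower: miR-150, miR-181a and miR-342 had lowest values of 553, 210 and 62.6 CPM. In healthy nodes, however, miR-150 averaged 7916 ± 5434 CPM (SD, n = 4), against 4640 ± 1005 CPM for miR-142 and 5591 ± 1616 CPM for miR-155. The log2 fold changes of miR-150, miR-181a and miR-342 in DLBCL against healthy nodes were -2.97, -1.49 and -0.77. Those of miR-142 and miR-155 were 0.22 and 0.44.

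miR-143 was by far the most abundant of the 5 miRNAs, and its group means were close. Its levels in DLBCL1 to DLBCL6 were 24800 CPM, 32916 CPM, 18807 CPM, 15649 CPM, 69211 CPM and 27890.2 CPM, and in Healthy2 to Healthy5 they were 50816 CPM, 23794 CPM, 34514 CPM and 22968 CPM. The highest and the lowest of the 10 values both belonged to DLBCL, in DLBCL5 and DLBCL4, and the groups overlapped widely. With counts scaled to the total of miRNA reads alone, the highest and the lowest were DLBCL6 and DLBCL3 instead. Among all 320 miRNAs of a library, miR-143 stood between place 3 and place 10 by reads. It averaged 31546 ± 19465 CPM across DLBCL (SD, n = 6) and 33023 ± 12976 CPM across healthy dogs (SD, n = 4), for a log2 fold change of -0.07 (standard error 0.43, 95% interval -1.01 to 0.88, adjusted p = 0.939 from edgeR). It moved to -0.61 within the lower base quality group, to -0.60 with base quality as a covariate and to -0.46 without DLBCL5, and was positive without DLBCL3, DLBCL4 or Healthy2, at 0.070, 0.11 and 0.23.

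miR-145, its neighbour in the genome, behaved differently among the tumors. It measured 542 CPM in DLBCL1, 604 CPM in DLBCL2, 85.0 CPM in DLBCL3, 1205 CPM in DLBCL4, 364 CPM in DLBCL5 and 579 CPM in DLBCL6. After TMM adjustment the healthy libraries were close together, at 679.96 CPM, 575 CPM, 722 CPM and 790.4 CPM in Healthy2 to Healthy5. Thus 3 DLBCL libraries lay below every healthy one, 1 lay above, and the DLBCL range spanned 14.2-fold against 1.38-fold in healthy nodes. With counts scaled to the total of miRNA reads alone, both ranges were wider. On the same scale, miR-145 then ran from 70.0 to 2104 in DLBCL and from 344 to 877 in healthy nodes. DLBCL averaged 563 ± 369 CPM (SD, n = 6) and healthy dogs 692 ± 90.4 CPM (SD, n = 4), and the log2 fold change was -0.30 (standard error 0.54, 95% interval -1.47 to 0.87, adjusted p = 0.769 from edgeR). It was -0.045 without DLBCL3 and -0.65 without DLBCL4, and its sign turned within the lower base quality group, at 0.35.

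miR-199 and miR-214, the mesenchymal pair, had lower group means in DLBCL, but the spread among the tumors was wide and neither passed the test. For miR-199 the DLBCL libraries held 988 CPM, 2677 CPM, 239 CPM, 1816 CPM, 992 CPM and 3027 CPM in the order of their numbers, and the healthy ones 3607 CPM, 2333 CPM, 2081 CPM and 4053 CPM. There were 4 DLBCL libraries below every healthy one, while DLBCL2 and DLBCL6 lay within the healthy range. DLBCL averaged 1623 ± 1080 CPM (SD, n = 6) and healthy dogs 3019 ± 960.1 CPM (SD, n = 4). The log2 fold change was -0.90 (standard error 0.56, 95% interval -2.11 to 0.32, adjusted p = 0.296 from edgeR). miR-214 was much rarer, with 36.6 CPM, 90.9 CPM, 9.70 CPM, 35.3 CPM, 29.4 CPM and 88.6 CPM in DLBCL1 to DLBCL6 and 66.7 CPM, 85.8 CPM, 71.8 CPM and 98.4 CPM in Healthy2 to Healthy5. The same libraries were low, and again DLBCL2 and DLBCL6 reached the healthy range. The averages were 48.4 ± 33.4 CPM (SD, n = 6) and 80.7 ± 14.3 CPM (SD, n = 4), and the log2 fold change was -0.74 (standard error 0.56, 95% interval -1.95 to 0.47, adjusted p = 0.382 from edgeR). Within the lower base quality group the log2 fold changes of miR-199 and miR-214 were -0.32 and -0.39, and the part of base quality was not tested.

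The endothelial miR-126 had the widest range of the 5. Its levels were 43.3 CPM in DLBCL1, 100.4 CPM in DLBCL2, 8.85 CPM in DLBCL3, 162 CPM in DLBCL4, 31.9 CPM in DLBCL5 and 186 CPM in DLBCL6, a 21.1-fold range. In healthy nodes it measured 134 CPM, 123 CPM, 94.3 CPM and 399 CPM, the last in Healthy5, which exceeded each of the other 9 libraries. DLBCL1, DLBCL3 and DLBCL5 lay below all healthy libraries. Averages were 88.8 ± 73.1 CPM (SD, n = 6) and 188 ± 142 CPM (SD, n = 4). The log2 fold change of -1.08 (standard error 0.73, 95% interval -2.67 to 0.51, adjusted p = 0.328 from edgeR) shrank to -0.57 without Healthy5. Within the lower base quality group it was -0.11, and the levels of miR-126 in DLBCL4 and DLBCL6 exceeded those of the 4 other DLBCL libraries, which ran from 8.85 to 100.4 CPM. The part of base quality in the level of miR-126 was not tested.

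**Figure D1:**
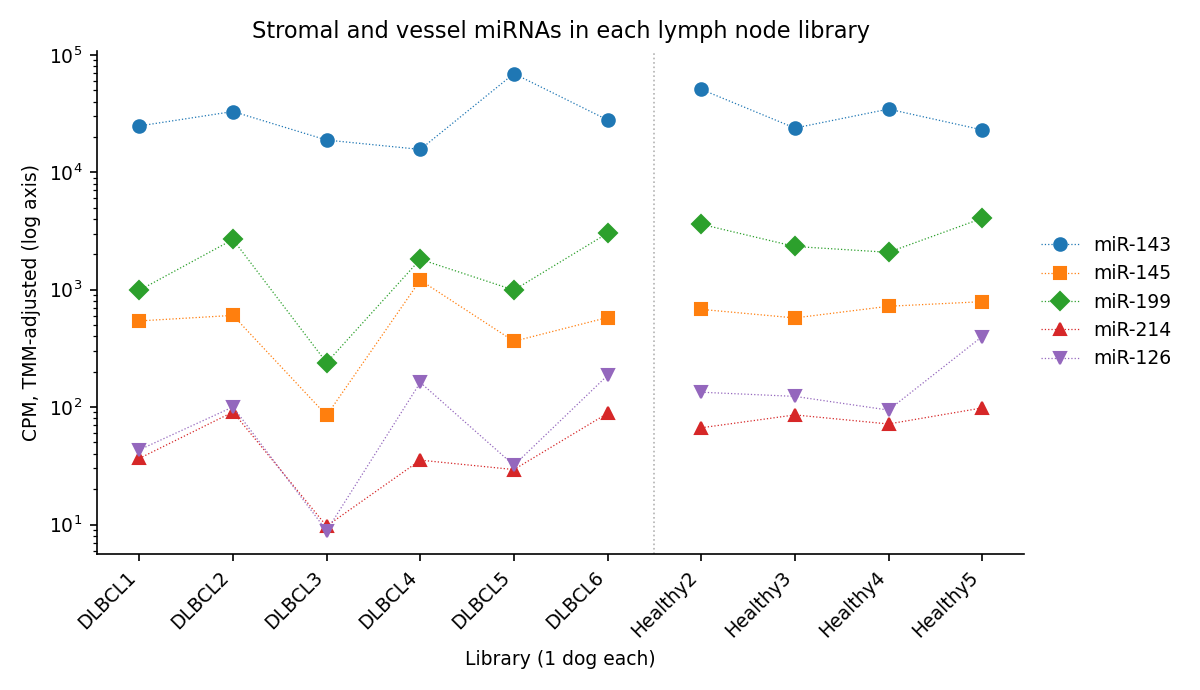
CPM (TMM-adjusted, log axis) of the 5 stromal and vessel miRNAs in each of the 10 libraries, DLBCL on the left and healthy on the right, with dotted lines that only help to follow a miRNA. miR-145, miR-199, miR-214 and miR-126 fall together in DLBCL3, to 85.0, 239, 9.70 and 8.85 CPM, while miR-143 is highest in DLBCL5 at 69211 CPM.

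A differentially expressed miRNA (DEM) had to pass an adjusted p of 0.05 and differ by more than 1 on the log2 scale, in edgeR's quasi-likelihood test over the 247 miRNAs that passed its default filter on low counts. All 5 members passed the filter. Of the 5 members, 0 were DEMs, against 5.67% of all miRNAs tested in either direction and 2.02% lower in DLBCL. With an unadjusted p-value under 0.05 the count was also 0 of 5, against 26.7% of all tested. With DESeq2 and with limma it was 0 of 5 DEMs as well, against 41 and 46 of all 247 tested. The log2 fold changes of the 5 were negative, with a median of -0.74, whereas the median of all miRNAs tested was 0.13 and 44.5% of them were negative. The groups overlapped for each of the 5, and failed to overlap for 13% of all miRNAs tested. Exact permutation of the group labels over all 210 assignments (two-sided, difference of mean log2 CPM) gave p = 0.719 for miR-143, p = 0.438 for miR-145, p = 0.1 for miR-199, p = 0.138 for miR-214 and p = 0.176 for miR-126. The intervals of miR-199, miR-214 and miR-126 reach down to log2 fold changes of about -2 or below, so that a fall of that size could not be told apart from no difference with these dogs.

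These negative signs depended on the scaling. With counts scaled to the total of miRNA reads alone, the median over all tested miRNAs was 0.82 instead of 0.13 on the log2 scale, and the values of miR-143, miR-145, miR-199 and miR-214 became positive, at 0.66, 0.63, 0.05 and 0.15, while miR-126 stood at -0.21. Relative to the median of all miRNAs in the same fit, each member remained negative, from -0.16 for miR-143 to -1.03 for miR-126. With miR-148a taken out of the total, the 5 values were -0.26 for miR-143, -0.22 for miR-145, -0.83 for miR-199, -0.69 for miR-214 and -0.99 for miR-126. As deposited TPM, which use that total, miR-143 ran from 15496 to 56680.0 in DLBCL and from 21064 to 25739 in healthy nodes, and miR-126 from 7.29 to 379 and from 59.0 to 443.

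**Figure D2:**
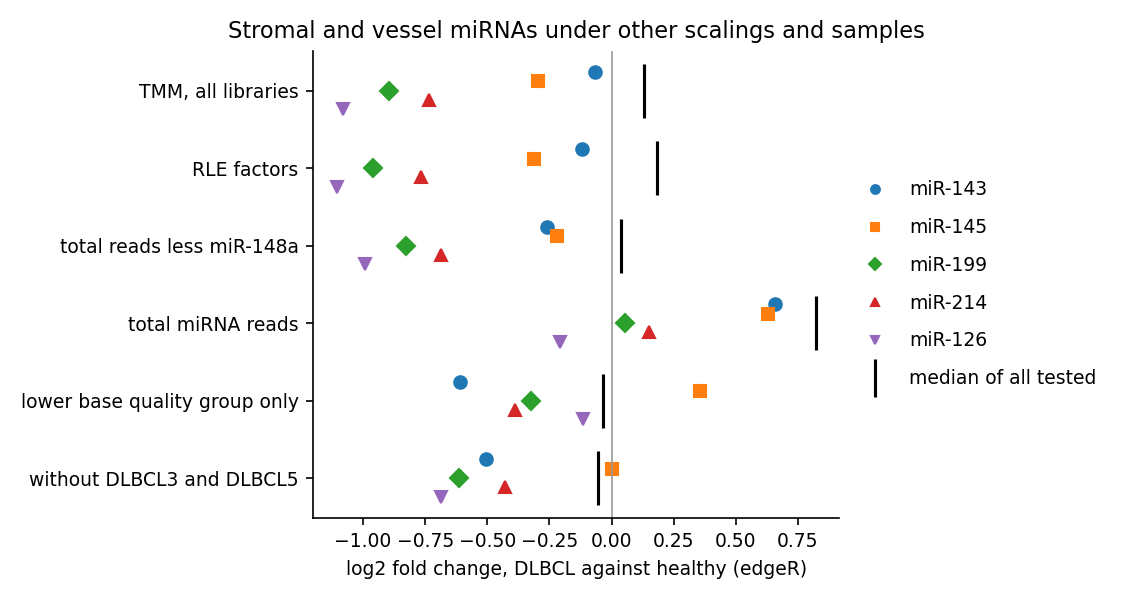
Log2 fold change (DLBCL against healthy, edgeR) of the 5 members under TMM and 3 other scalings, and in 2 subsets of the libraries, with the median of all miRNAs tested as a vertical tick. With total miRNA reads 4 of the 5 points are positive, at 0.66, 0.63, 0.05 and 0.15, but each lies left of the tick, and under the other scalings each of the 5 is negative. In the 2 subsets miR-145 is at 0.35 (lower base quality group) and 0.0019 (without DLBCL3 and DLBCL5).

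The 5 miRNAs varied widely among the tumors. The SD of log2 CPM among DLBCL libraries was 0.75 for miR-143, 1.29 for miR-145, 1.35 for miR-199, 1.19 for miR-214 and 1.67 for miR-126. Among healthy dogs it was 0.54, 0.19, 0.47, 0.25 and 0.92 in the same order. A larger SD in DLBCL was seen for 5 of 5 members, but also for 87.0% of all miRNAs tested, whose median SD was 1.07 in DLBCL and 0.54 in healthy nodes, a background close to the members' count. After TMM adjustment, DLBCL3 was the lowest of the 10 libraries for 4 of the 5 members, miR-143 being the exception, and for 34.0% of all miRNAs tested. As deposited TPM, miR-143 was lowest in DLBCL3 as well, at 15496. Without DLBCL3, the SD in DLBCL fell to 0.62 for miR-145, 0.77 for miR-199, 0.78 for miR-214 and 1.13 for miR-126, against a median of 0.80 over all tested. The smallest count of any member was 188 reads, of miR-126 in DLBCL3.

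Markers of other cells were read beside these values. In DLBCL3 the summed level of the epithelial list (miR-200a, miR-200b, miR-200c, miR-141, miR-429, miR-203 and miR-205) was 130.2 CPM, the highest of all libraries, against a median of 25.9 CPM in DLBCL and 28.5 CPM in healthy nodes. Most of it was miR-200c, at 108 CPM, while miR-203 was at 3.25 CPM there, the lowest of the 10 libraries, and miR-141 at 4.05 CPM. For the red blood cell list (miR-451, miR-144 and miR-486) the sum ran from 5170.5 to 35566 CPM in DLBCL and from 808 to 1070.5 CPM in healthy nodes, and 2 of 3 were DEMs, both higher in DLBCL. The lymphocyte list (miR-150, miR-142, miR-342, miR-155 and miR-181a) summed to 9138 to 22448 CPM in DLBCL and 14280.0 to 30137 CPM in healthy nodes, with a median log2 fold change of -0.77, and 1 of 5, miR-150, was a DEM. miR-223 of myeloid cells had a log2 fold change of 0.09 (adjusted p = 0.948 from edgeR), and its lowest level, 3.95 CPM, was in DLBCL3. The striated muscle list summed to 678 to 3238 CPM in DLBCL and 609 to 771 CPM in healthy nodes. Its largest part was miR-499, with 468 to 3172 CPM in DLBCL and 591 to 744 CPM in healthy nodes. In DLBCL3 the sum was 828 CPM, with miR-499 at 468 CPM and miR-1 at 301 CPM. Of the 7 names of the muscle list, 4 were tested (miR-1, miR-133c, miR-206 and miR-499). Among these, 0 were DEMs in edgeR, with a median of 1.32 and 1 unadjusted p-value under 0.05. Of the 7 epithelial names, 3 were tested (miR-200c, miR-141 and miR-203) and 0 were DEMs, with a median of 0.51 and 0 unadjusted p-values under 0.05. Among all miRNAs tested, 5.67% were DEMs, 26.7% had an unadjusted p-value under 0.05 in edgeR, and the median log2 fold change was 0.13. The muscle count of 1 of 4 is near that share. No name of these lists was at 0 in all libraries. The part of other cells in the levels of the 5 miRNAs was not tested.

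The level of miR-199 went up and down with those of miR-214 and miR-126 across the 10 dogs, the other pairs among miR-145, miR-199, miR-214 and miR-126 were less stable, and no correlation with miR-143 passed the test. All 10 pairs of members were correlated on log2 CPM, with permutation p-values (100000 resamples, two-sided) adjusted over the 10 pairs. For miR-199 and miR-214, Pearson's r was 0.95 (permutation p = 0.00044, adjusted p = 0.0022) and Spearman's rho was 0.83 (permutation p = 0.00448, adjusted p = 0.025). For miR-199 and miR-126, r was 0.95 (permutation p = 0.00015, adjusted p = 0.0015) and rho was 0.83 (permutation p = 0.00499, adjusted p = 0.025). Nodes with more of the mesenchymal miR-199 thus tended to hold more of the endothelial miR-126, but not in every case. DLBCL4 lay below every healthy library for miR-199, at 1816 CPM. Its miR-126, at 162 CPM, lay above that of Healthy2, Healthy3 and Healthy4. Without the 2 libraries farthest from the median of miR-199, DLBCL1 and DLBCL3, r was 0.83 with miR-214 and 0.84 with miR-126 (adjusted permutation p = 0.0421 for each). Spearman's rho was then 0.74 and 0.69, which did not pass (adjusted permutation p = 0.193 for each).

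miR-145 correlated with miR-126 at r = 0.86 (permutation p = 0.00204, adjusted p = 0.0062) and rho = 0.75 (permutation p = 0.0181, adjusted p = 0.0602), and with miR-199 at r = 0.85 (permutation p = 0.0123, adjusted p = 0.0245) and rho = 0.60 (permutation p = 0.0728, adjusted p = 0.146). Its r with miR-214 was 0.76 (permutation p = 0.035, adjusted p = 0.0583) and rho was 0.48 (permutation p = 0.167, adjusted p = 0.279). Leaving out DLBCL3 and DLBCL4, which lay farthest from the median of miR-145, gave r = 0.79, 0.77 and 0.77 in the same order (adjusted permutation p = 0.0421 for each), with an adjusted permutation p = 0.193 for each rho. Without DLBCL3 alone, r was 0.67 with miR-126 (adjusted permutation p = 0.0993), 0.43 with miR-199 and 0.15 with miR-214, none of which passed the test. For miR-199 without DLBCL3, r was 0.86 with miR-214 and 0.88 with miR-126 (adjusted permutation p = 0.02 for each), but rho was 0.77 for both and did not pass (adjusted permutation p = 0.111 for each). The rho of both pairs also missed the threshold without DLBCL1 (adjusted permutation p = 0.0875), DLBCL5 (0.0835) or Healthy5 (0.107). The pair of miR-214 and miR-126 had r = 0.87 (permutation p = 0.00248, adjusted p = 0.0062) and rho = 0.68 (permutation p = 0.035, adjusted p = 0.0875). That relation rested on DLBCL3 and DLBCL5, without which r was 0.52 (permutation p = 0.21). Within the 6 DLBCL libraries alone, r was 0.96 for miR-199 and miR-214, 0.95 for miR-199 and miR-126 and 0.91 for miR-145 and miR-126, each with an adjusted p = 0.037 from the exact permutation of the 720 pairings, and Spearman's rho of 0.77, 0.89 and 0.83 with an adjusted p = 0.272 each by exact permutation. All pairs share the scaling of their library. With total miRNA reads in its place, the r of these 6 pairs ran from 0.85 for miR-145 and miR-214 to 0.97 for miR-199 and miR-126. That total is shared by all pairs of a library as well, so the part of a shared scaling in the correlations was not tested.

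miR-143 stood apart. Its Pearson's r was 0.02 with miR-145 (permutation p = 0.956, adjusted p = 0.956), 0.19 with miR-199 (permutation p = 0.592, adjusted p = 0.78), 0.18 with miR-214 (permutation p = 0.624, adjusted p = 0.78) and -0.08 with miR-126 (permutation p = 0.83, adjusted p = 0.922). Spearman's rho for the same pairs was -0.16, 0.19, 0.05 and -0.24, with permutation p-values of 0.659, 0.61, 0.892 and 0.515 and adjusted values of 0.732, 0.732, 0.892 and 0.732. Without the 2 libraries farthest from the median of miR-143, DLBCL5 and Healthy2, r was 0.17, 0.42, 0.61 and 0.18, with adjusted permutation p-values between 0.2 and 0.687. On total miRNA reads, r was 0.46, 0.52, 0.53 and 0.39, with adjusted permutation p-values between 0.148 and 0.264. In the absence of DLBCL3, where both were low, miR-143 and miR-145 had r = -0.72 (adjusted permutation p = 0.0953). After TMM adjustment DLBCL4, the library with the most miR-145, had the least miR-143. As deposited TPM, DLBCL4 again had the most miR-145, at 2104. Its miR-143, at 27331, then exceeded the healthy range of 21064 to 25739.

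**Figure D3:**
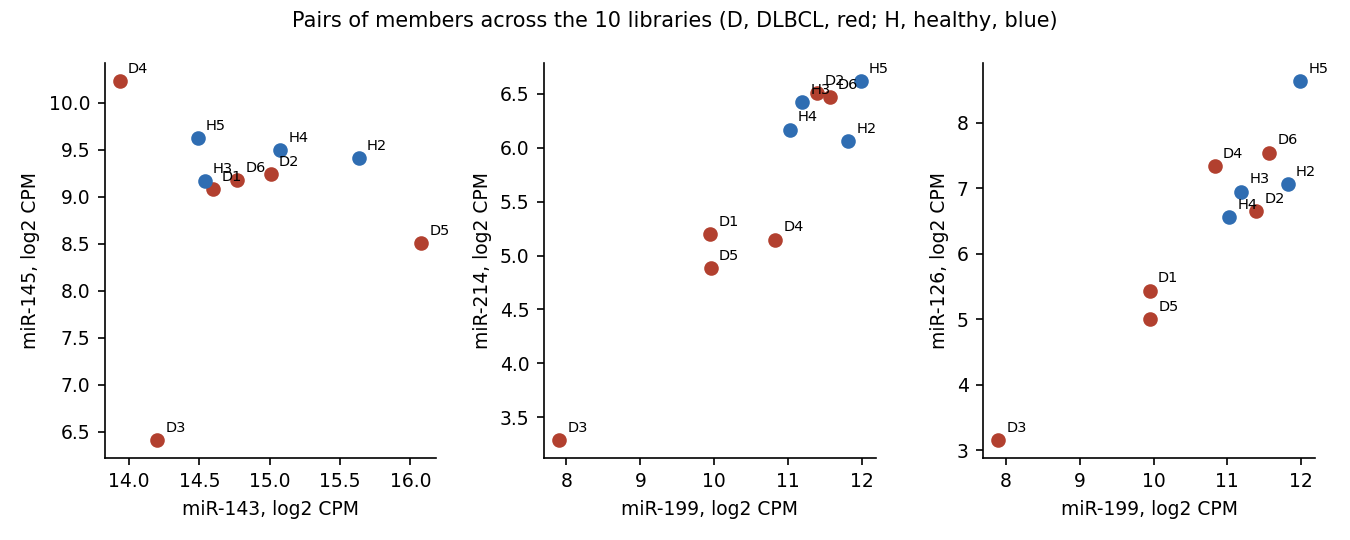
Log2 CPM (TMM-adjusted) of 3 pairs of members, 1 point per library, DLBCL in red and healthy in blue. The points of miR-199 lie along a line with miR-214 and with miR-126 (r = 0.95 for each), while those of miR-143 and miR-145 do not (r = 0.02).

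Ratios of 2 members within a library do not depend on the scaling, and the genomic pairs differed in their spread. There were between 24.6 and 51.4 reads of miR-199 per read of miR-214 in DLBCL, a 2.09-fold range, and between 27.2 and 54.1 in healthy nodes, a 1.99-fold range. The reads of miR-143 per read of miR-145 were 45.8 in DLBCL1, 54.5 in DLBCL2, 221 in DLBCL3, 13.0 in DLBCL4, 190.3 in DLBCL5 and 48.1 in DLBCL6, a 17.0-fold range. In healthy nodes the same ratio was 74.7, 41.4, 47.8 and 29.1, a 2.57-fold range. DLBCL1, DLBCL2 and DLBCL6 thus lay among the healthy values, DLBCL3 and DLBCL5 above all of them and DLBCL4 below. miR-143 and miR-145 are known to leave a common precursor, yet the proportion of their reads varied more between tumors than that of miR-199 and miR-214. The contrast was not particular to the genomic pairs. In DLBCL the ratios with miR-143 had ranges from 7.48-fold (to miR-214) to 22.5-fold (to miR-126). The ratios without miR-143 had ranges from 2.09-fold (miR-199 to miR-214) to 5.21-fold (miR-145 to miR-214), with 2.78-fold for miR-199 to miR-126. No test of these differences in spread was made.

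DLBCL3 and DLBCL5 also held the most miR-143 relative to every other member. The ratio of miR-143 to miR-199 was 78.7 and 69.8 in these dogs, 25.1 in DLBCL1, and between 8.62 and 12.3 in DLBCL2, DLBCL4 and DLBCL6, against 5.67 to 16.6 in healthy nodes. To miR-126 it was 2125 and 2168 in DLBCL3 and DLBCL5, and between 96.5 and 573 in the other DLBCL libraries, against 57.5 to 379.5 in healthy nodes. Both dogs belong to the higher base quality group, and the part of base quality in this ratio was not tested. Between the groups, 0 of the 10 ratios differed, whether by the adjusted p-value or with an unadjusted p-value under 0.05 (two-sided exact permutation over 210 assignments). The smallest p of the 10 was 0.152 by exact permutation, for miR-145 to miR-126, with an adjusted p of 0.514. For miR-143 to miR-145 the mean log2 ratio was 5.99 ± 1.51 across DLBCL (SD, n = 6) and 5.51 ± 0.56 across healthy dogs (SD, n = 4) (exact permutation p = 0.562, adjusted p = 0.562). For miR-199 to miR-214 it was 5.02 ± 0.37 (SD, n = 6) and 5.19 ± 0.46 (SD, n = 4) (exact permutation p = 0.538, adjusted p = 0.562).

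**Figure D4:**
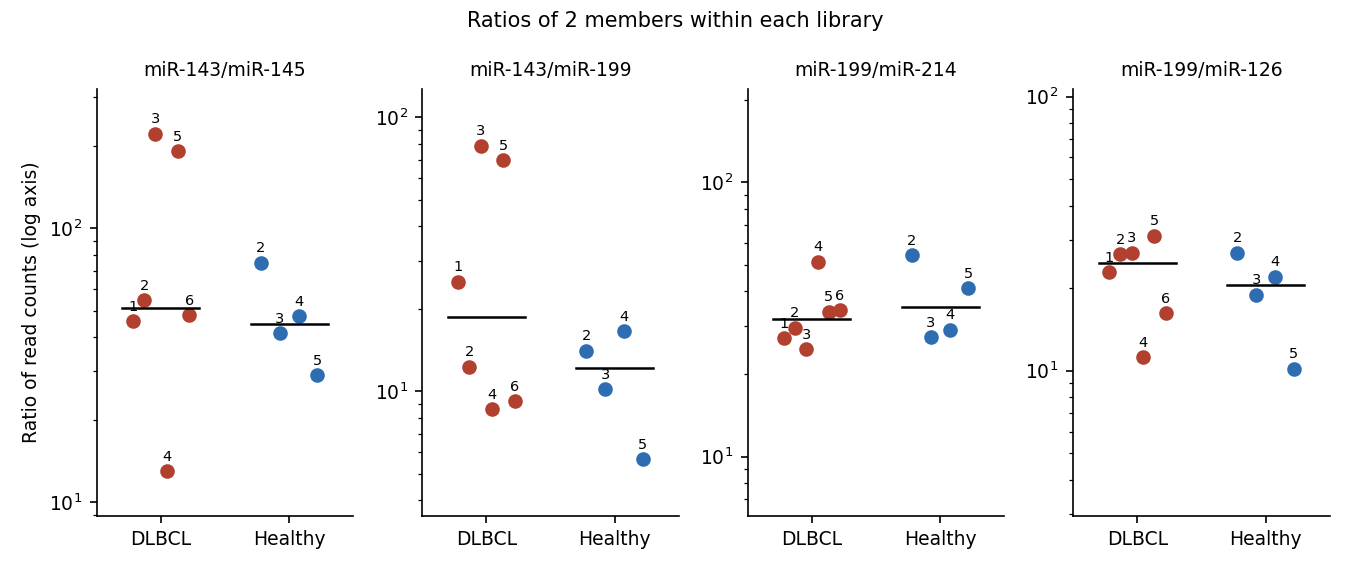
Ratio of the read counts of 2 members in each library (log axes of equal span), with the replicate number beside each point and the group median as a bar. miR-143/miR-145 spreads from 13.0 in DLBCL4 to 221 in DLBCL3, whereas miR-199/miR-214 stays between 24.6 and 54.1 in all 10 libraries.

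The miRNAs with the most similar levels across the 10 libraries were looked up for each member among the other 246 tested, by Pearson's r of log2 CPM, as a description. miR-199 was closest to miR-411 (r = 0.95), which belongs to the imprinted cluster of DLK1 and DIO3, followed by miR-214 and miR-126. miR-214 was closest to miR-199, followed by miR-23b (r = 0.94) and miR-23a (r = 0.93). miR-126 was closest to miR-338 (r = 0.96), followed by miR-130a (r = 0.95), known from endothelium, and miR-199. For miR-145 the nearest were miR-338 (r = 0.93), miR-181c (r = 0.91) and miR-30a (r = 0.91). The list for miR-143 shared no name with the other 4. It held miR-224 (r = 0.87), miR-149 (r = 0.83) and miR-24 (r = 0.81), and miR-145 stood at place 124 of 246.

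Other miRNAs known from fibroblasts, cartilage, smooth muscle or endothelium were taken as a list of 24, and all 24 were tested. Of these, 0 were DEMs in edgeR, 6 had an unadjusted p-value under 0.05 against 26.7% of all miRNAs tested, a share no higher in the list, and 15 of 24 had a negative log2 fold change, with a median of -0.14. DESeq2 called 3 of the 24 and limma with sample quality weights 5, against 41 and 46 among all 247. The 6 were miR-379 (log2 fold change -1.86), miR-10a (-1.47), miR-152 (-1.45), miR-125b (-1.42), miR-195 (-1.03) and miR-29c (1.92), with adjusted p-values between 0.109 and 0.138 from edgeR. miR-10a, which restrains inflammatory activation of endothelium, averaged 1749 ± 1139 CPM across DLBCL (SD, n = 6) and 4846 ± 1774 CPM across healthy dogs (SD, n = 4), with no overlap of the groups. The groups did not overlap for miR-125b either, which makes 2 of the 24 against 13% of all tested, at 395 ± 193 CPM (SD, n = 6) and 1057 ± 341 CPM (SD, n = 4). miR-29c, a repressor of collagen genes, had the largest positive value of the list. In the study's quantitative PCR of DLBCL and healthy nodes, miR-29c was taken as a stable reference. Its mean there was also higher in DLBCL, without passing the study's FDR threshold, on a scale that miR-29c itself helped to set. The same PCR reported miR-379 and miR-152 as lower in DLBCL.

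**Figure D5:**
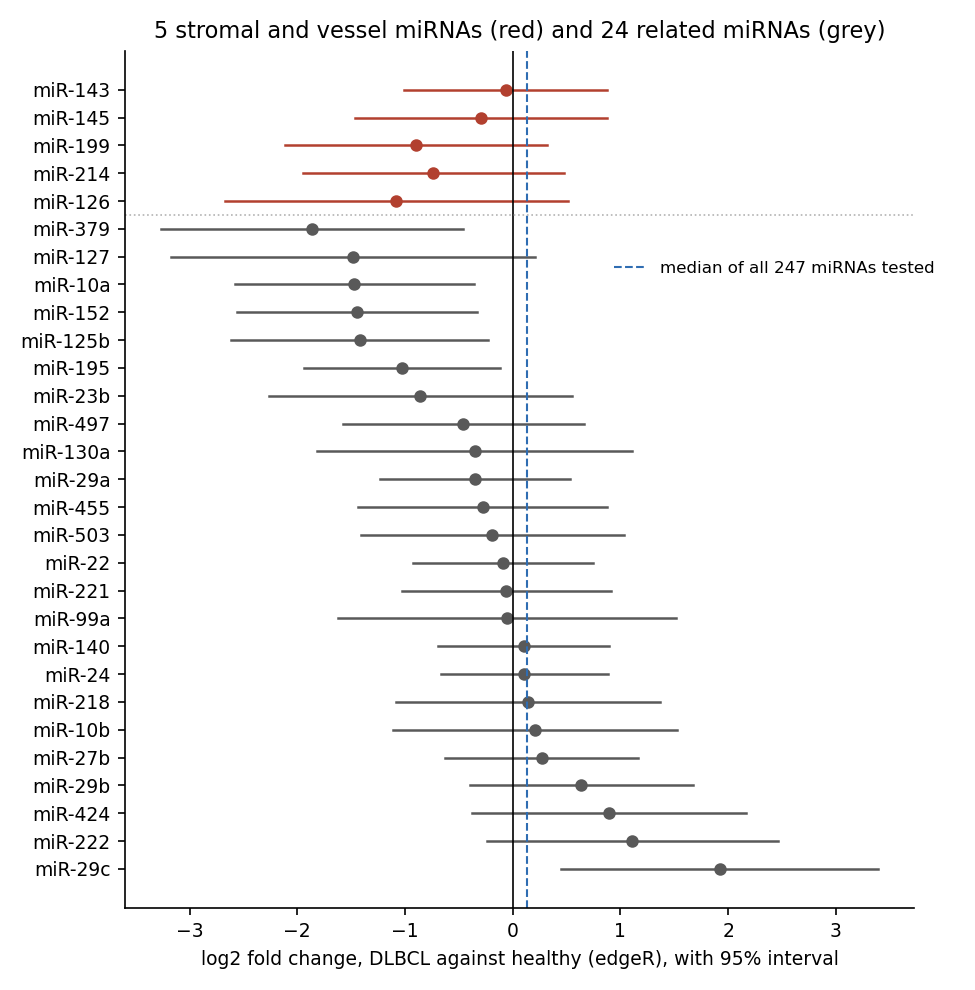
Log2 fold change (DLBCL against healthy, edgeR) with its 95% interval for the 5 members in red and 24 related miRNAs of stroma and vessels in grey, with the median of all 247 miRNAs tested as a dashed line. The 5 intervals of the members include 0, from miR-126 at -1.08 to miR-143 at -0.07.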

How the data were processed

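Small RNA of 10 lymph nodes was sequenced, one library per dog. Per the labels and the study's methods, reads were trimmed by the authors, aligned by Bowtie 0.12.9 to the build CanFam3.1, stripped of repeats and of other classes of small RNA, and counted on known miRNAs with miRDeep2. They deposited raw read counts, which were used here, and TPM values, the same counts as shares of the library's miRNA reads on a parts-per-1000000 scale, which were checked and differ from that share by at most 4.55e-05. No column was left unmapped. Groups were taken from the titles.

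Counts were tested with edgeR 4.0.16 in R 4.3.3 (TMM, default filter by group, quasi-likelihood test, Benjamini-Hochberg over 247 miRNAs), with DESeq2 1.42.0 and limma 3.58.1 (voom with sample quality weights) as alternatives. The standard error was derived from the F statistic. Log2 CPM used a prior count of 2. Ratios, permutations and plots were made in Python 3.11.15 with numpy 2.4.6, pandas 2.3.3, scipy 1.17.1 and matplotlib 3.10.9. The fit and the permutation test were tested on simulated data. No 2 libraries of a group held near-identical counts (chi-squared at least 2115 per degree of freedom). The members, lists and tests were chosen with earlier results of these data known. The miRNAs named are the members, the lists, miR-148a and, for each member, the 3 closest by Pearson's r. Single library values of members have 188 or more reads behind them, and counting error does not cover PCR duplicates.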

Additional observations from a re-analysis of the deposited data

How the results depend on the processing

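No member became a DEM under any alternative run, and none of the 10 ratios passed the adjusted threshold. With 6 dogs against 4, precision is set by the spread among dogs (biological coefficient of variation 0.731 in edgeR). Origin, breed and sampling go with the diagnosis, and age cannot be separated from it. Base quality goes with the diagnosis in part, as DLBCL4 and DLBCL6 share the lower group with the healthy libraries. The number of DEMs among all miRNAs was 14, and 8 with RLE factors (3 higher, 5 lower), 23 with total miRNA reads (22 higher, 1 lower), 41 with DESeq2, 46 with limma voom, 7 with base quality as a covariate, 46 within the lower base quality group, 26 without DLBCL3 and DLBCL5 (chosen after seeing the data) and 1 to 23 with one library left out. It was 9 higher and 5 lower in the reported fit. Of the 24 related miRNAs, 0 were DEMs, and 3 with DESeq2, 5 with limma voom, 1 with the covariate, 3 within the lower base quality group, 3 without DLBCL3 and DLBCL5 and 0 to 2 with one library left out (2 without DLBCL3). Signs turned as follows, the cause not being tested. With total miRNA reads the log2 fold change was 0.66 for miR-143, 0.63 for miR-145, 0.053 for miR-199 and 0.15 for miR-214. miR-145 was at 0.37 with the covariate, 0.35 within the lower base quality group and 0.0019 without DLBCL3 and DLBCL5. With one library left out, miR-143 ran from -0.46 to 0.23, being positive without DLBCL3, DLBCL4 or Healthy2, and the other 4 stayed negative.

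Within the lower base quality group the group difference of the log2 ratio was -0.86 for miR-143 to miR-145, -0.27 for miR-143 to miR-199, -0.072 for miR-143 to miR-214, -0.72 for miR-143 to miR-126, 0.20 for miR-199 to miR-214, -0.45 for miR-199 to miR-126 and -0.65 for miR-214 to miR-126, each of the opposite sign to that over all libraries. The 15 splits there allow no exact permutation p below 0.0667. With one library left out, miR-199 to miR-214 ran from -0.31 to 0.024 and miR-199 to miR-126 from -0.074 to 0.40. By Pearson's r, 5 of the 10 correlations passed the adjusted threshold, 3 did within DLBCL, and 2 to 6 with one library left out, which was added after seeing the data (2 without DLBCL3). By Spearman's rho 2 passed, and 0 within DLBCL. Those of miR-143 changed sign: r with miR-126 was 0.39 on total miRNA reads and 0.18 without the 2 libraries farthest from the median, r with miR-145 was -0.034 within DLBCL, and with one library left out r ran from -0.72 to 0.28 with miR-145, -0.17 to 0.49 with miR-199, -0.17 to 0.50 with miR-214 and -0.54 to 0.21 with miR-126.

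The groups share the numbers 2 to 5, but a number names a dog and pairs nothing: same-numbered libraries deviated from their group means with r of 0.26, -0.01, -0.30 and -0.33. With the replicate block over these 8 libraries, 1 miRNA was a DEM, 0 members and 0 related miRNAs were, and 0 ratios passed.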

Other observations

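The remaining ratios among the members were as follows. Reads of miR-145 per read of miR-126 ran from 3.11 in DLBCL6 to 12.5 in DLBCL1, and from 1.98 in Healthy5 to 7.66 in Healthy4. Per read of miR-126 there were 11.2 to 31.1 reads of miR-199 in DLBCL and 10.2 to 26.9 in healthy nodes, with the lowest of each group in DLBCL4 and Healthy5. DLBCL4 also had the highest ratio of miR-145 to miR-214, at 34.1 against 6.54 to 14.8 in the other DLBCL libraries, and the lowest ratio of miR-214 to miR-126, at 0.218. In none of the 30 groups of values of members and ratios did a single library stand apart by Dixon's test.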
